A study of Arabidopsis thaliana with 12 samples.

Results

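A set of 71 transposable element (TE) genes had almost no RNA in wild-type *Arabidopsis thaliana* leaves and had RNA in every library of 2 DNA methylation mutants, *ddcc* and *met1*. TE genes are annotated genes that lie inside transposons, and 1764 of them were listed in the 9 files used here. The members were chosen by measured values. The mean deposited log2 value of the 3 Col-0 libraries had to be under 2, and the lowest of the 3 *ddcc* values and the lowest of the 3 *met1* values both had to be over 3. Only the 787 TE genes listed for all 3 genotypes could meet these limits. Values over all 1764 listed TE genes below thus include genes that could not be members. A deposited value is the log2 of 1 plus a read count that was scaled by the size factor of its library, so the limits correspond to a few reads. With the same limits, 124 TE genes were on in *ddcc* and off in Col-0, and 730 were on in *met1* and off in Col-0. The 71 members made up 57.3% of the first list and 9.73% of the second. All levels of the members in Col-0, *ddcc* and *met1* below are therefore descriptions of what the choice picked, and no test was made on them.

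The study asked how DNA methylation shapes chromatin and transcription, and its RNA-seq files analysed here cover 3 genotypes with 3 libraries each. Col-0, the wild-type accession, and *ddcc* (*drm1 drm2 cmt2 cmt3*) were labelled mature leaves of 5-week-old plants. The mutant *met1-3* was labelled young shoots of 2-week-old seedlings, and a wild type of that age was not analysed here, so genotype, age and tissue cannot be told apart for *met1*. The 3 files labelled *met1-3* mature leaves held the reads of Col-0 at all 22607 shared genes and were left out. The *met1* values come from a table normalised apart from that of Col-0 and *ddcc*. Where *met1* values stand beside those of *ddcc* or Col-0 they are given side by side with no test, and only ranks and shares within a library are comparable between the tables. The labels do not say whether replicates came from separate plants or pools, so p-values measure only the spread between these libraries.

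The 9 libraries held between 10105057 and 13989374 reads on genes, of which 56.7% to 65.8% lay on plastid genes. TE genes took 0.0706% ± 0.00232 of the reads in Col-0, 0.175% ± 0.00838 in *ddcc* and 1.16% ± 0.0135 in *met1* (SD, n = 3 each). Reads on the mutated genes did not check the labels. MET1 had 317 to 384 normalised reads in *met1*, 41.9 to 57.1 in Col-0 and 61.9 to 104 in *ddcc*, and DRM2, CMT2 and CMT3 did not pass the thresholds of the comparison of *ddcc* with Col-0. DRM2 still had fewer normalised reads in *ddcc* (9.95 to 33.3) than in Col-0 (47.2 to 68.7). CMT2 had more in *ddcc* (174 to 194) than in Col-0 (108 to 142). Of 6 leaf mesophyll marker genes, 5 were higher in *ddcc*, and their summed normalised reads were 37358 to 45263 in Col-0 and 89923 to 95148 in *ddcc*. Flower markers summed to at most 34.2 normalised reads in any library. Of 4 shoot meristem markers, WUS and CLV3 were not listed, and STM and KNAT1 summed to 72.3 to 126 normalised reads in Col-0, 109 to 132 in *ddcc* and 36.7 to 47.8 in *met1*. Of 5 pollen markers, MGH3 and DUO1 were not listed. The list summed to 130 to 162 in Col-0, 167 to 175 in *ddcc* and 200 to 255 in *met1*. Most of it came from AT1G67490, which was matched by the symbol GCS1 alone and need not be the pollen gene of that name. The sum is therefore no measure of pollen RNA. None of the genes tested from the meristem and pollen lists passed the thresholds in *ddcc*. Plastid reads were 58.8% ± 0.913 in Col-0 and 65.0% ± 0.744 in *ddcc*. The part of these differences in the levels of the 71 TE genes was not tested, and fewer expressing cells cannot be told apart from less RNA per cell in such samples.

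DNA methylation in plants occurs in 3 sequence contexts. MET1 copies CG methylation at each round of replication, CMT3 and CMT2 keep CHG and CHH methylation (H is A, C or T) at sites marked by H3K9 methylation, and DRM2 with its paralog DRM1 methylates through the RNA-directed pathway. Together these marks silence transposons. *Copia* and *Gypsy* elements are retrotransposons with long terminal repeats (LTRs) that copy themselves through RNA, LINEs are retrotransposons without LTRs, and MuDR, En-Spm, Harbinger and hAT elements are DNA transposons that a transposase cuts out and moves.

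Several of the elements keep the sequences with which such transposons move, and these are shown first because they were not used to choose the members. Of the 20 *Copia* elements, 11 had a direct repeat at both ends (at least 100 bases, 80% identity and within 20 bases of the listed ends), with a median identity of 97.6% between the LTR copies. In 9 of these 11, the 12 bases complementary to the end of a tRNA-Met lay at most 3 bases after the 5′ LTR. This is the primer binding site, where the tRNA starts reverse transcription. Of the 11 Gypsy elements that hold members, 9 were searched here, since an element shared with another group was counted once. By the same limits 4 of these 9 had LTRs, and 1 of the 4, that of AT3G43862, had such a site. Its LTRs had 1758 bases with 99.3% identity, and its site matched tRNA-Asp. In the 30-base windows below, read 5′ to 3′ on the strand of the element, capitals mark the 12 bases of the primer binding site and the 10 bases before it hold the end of the LTR.
AT1G36185: acttctaataTGGTATCAGAGCtatacact
AT1G48680: ctttacaaatTGGTATCAGAGCtcacggtt
AT5G57126: ctttacaaatTGGTATCAGAGCtcacggtt
AT2G20460: catcgtgaaaTGGTATCAGAGCcatcgagc
AT3G44215: attgctaataTGGTATCAGAGCaaaataca
AT3G43862: attatcaattTGGCGCCGTTGCcaattggg

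In the build TAIR10.1 these windows lie at chr1:13560065-13560094 (plus strand), chr1:18006859-18006888 (minus), chr5:23139429-23139458 (minus), chr2:8820693-8820722 (minus), chr3:15923870-15923899 (minus) and chr3:15720913-15720942 (minus), in the order shown. The 5 *Copia* sites are the same 12 letters because each was found as a match to the end of a tRNA-Met. The flanking LTR ends differ, except in AT1G48680 and AT5G57126, whose windows are identical. The LTR copies of AT2G20460 were identical over 174 bases. The 5 bases outside both LTRs, a mark left when an element inserts, were the same in 6 of the 11 *Copia* elements. They were the same in 1 of the 4 Gypsy elements with LTRs, that of AT3G43862. Of the 13 *Copia* elements whose TE genes were on in *ddcc* alone, 13 had LTRs by the same limits.

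Among 24 elements of the DNA superfamilies, 2 had an inverted repeat of at least 12 bases and 80% identity within 10 bases of both ends. Such ends are where a transposase cuts. These show the bases with which the element is moved, so 30 bases from the start of the repeat are printed for both ends, the second read on the opposite strand, with capitals for the bases inside the repeat.
AT3G30170 first end: GGAAAAAATGTTAATTAATACACCAATTTT
AT3G30170 second end: GGGAAAAATGTTGTTTAATACACCAACTTT
AT1G33570 first end: ACTAGAAGAATATTGAGCATTTATAatatt
AT1G33570 second end: ACTACAAGAATATGGAGCATTTGTAgtgtc

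The ends of the MuDR element of AT3G30170 lie at chr3:11793559-11793588 and chr3:11798425-11798454 and were 92.2% identical over 332 bases. Those of the En-Spm element of AT1G33570, at chr1:12177190-12177219 and chr1:12172518-12172547, were 88.0% identical over 25 bases. This En-Spm element also holds the member AT1G33580.

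In Col-0 the 71 TE genes had 32, 41 and 43 reads in all, against 6556, 6906 and 6972 in *ddcc* and 11379, 9127 and 12107 in *met1*. Reads on nuclear genes ranged from 3938275 to 5310477 over these libraries. No TE gene of the set had more than 4 reads in a Col-0 library, and 25 of the 71 had none in all 3. The members took 30.4% ± 1.86 of all TE gene reads in *ddcc* but 7.89% ± 0.184 in *met1* (SD, n = 3 each), where 730 TE genes were on. The heat map of deposited values by library shows these levels gene by gene.

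**Figure D1:**
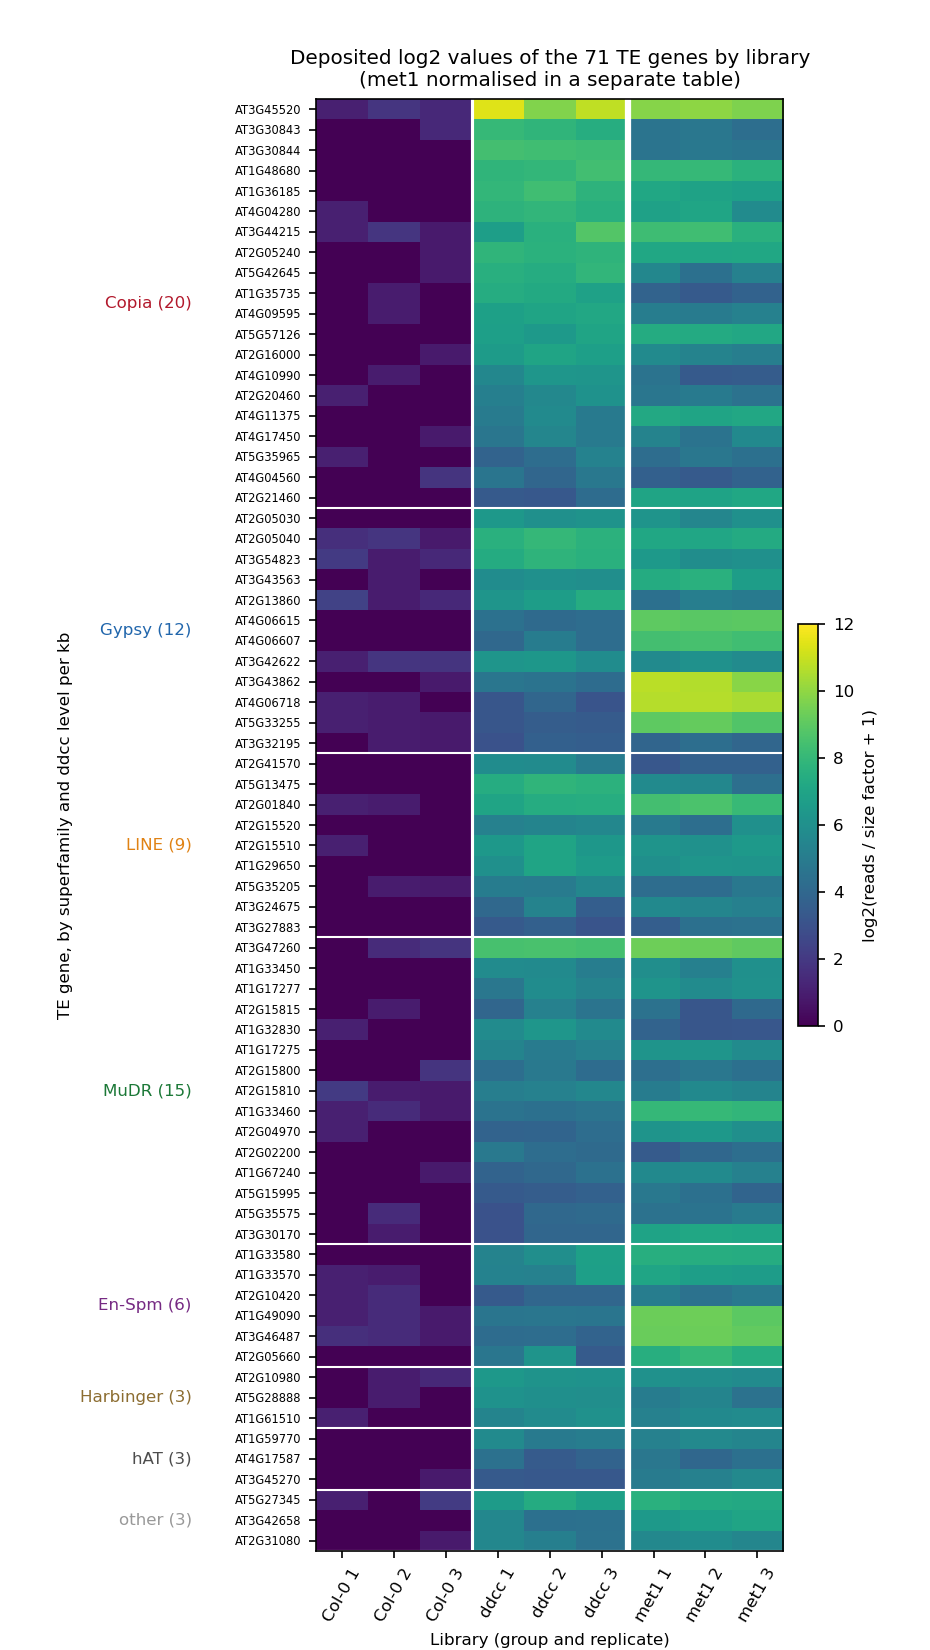
Deposited log2 values (log2 of reads divided by the size factor, plus 1) of the 71 TE genes (rows, grouped by superfamily and ordered by *ddcc* level per kb) in the 9 libraries (columns). Every Col-0 column is dark, the brightest *ddcc* row is the *Copia* gene AT3G45520, and the brightest *met1* rows are the Gypsy genes AT3G43862 and AT4G06718.

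At the upper limit in Col-0, the members nearest the edge were AT2G13860, AT3G42622 and AT3G54823 with mean log2 values of 1.56, 1.56 and 1.45. The nearest TE genes left out for their Col-0 level were AT2G15940, AT5G28335 and AT1G36630 at 2.08, 2.16 and 2.16. For *ddcc*, AT3G30170, AT3G32195 and AT5G35575 entered with a lowest log2 value of 3.03, and AT5G33254, AT5G38383 and AT3G43436 stayed out at 2.93, 2.93 and 2.81. For *met1*, AT1G32830, AT2G15815 and AT2G41570 entered at 3.19, 3.19 and 3.28, and AT2G16680, AT5G27902 and AT2G13460 stayed out at 2.98, 2.98 and 2.96. Near these limits a library holds only a few reads of a gene, so membership at the edges rests on few reads.

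The superfamilies took different shares in the 2 mutants. Of the members, 20 were *Copia*, 15 MuDR, 12 Gypsy, 9 LINE, 6 En-Spm, 3 Harbinger and 3 hAT, and 3 were otherwise classed. The superfamily is that of the TE covering most of the gene in the study's own lists of TEs that were upregulated or expressed. That all members had an entry there is thus no finding. No least coverage was set. The TE covered 25.2% of AT5G13475 and 31.4% of AT2G01840 (both LINE), and 31.5% of AT5G35575 and 35.1% of AT1G33460 (both MuDR). It covered 35.9% of AT4G04560 (*Copia*), 45.3% of AT2G15810 (MuDR) and 47.4% of AT3G42622 (Gypsy). The class of such genes is uncertain. *Copia* genes made up 28.2% of the members, 36.1% of the 36 TE genes on in *ddcc* alone and 1.18% of the 592 on in *met1* alone. Here alone means a mean log2 value under 2 or no entry in the other mutant. Over all 1764 listed TE genes the *Copia* share was 8.33%. Gypsy genes made up 16.9% of the members and 30.7% of all listed, MuDR genes 21.1% and 18.3%. LINE genes made up 12.7% and 5.67%, and En-Spm genes 8.45% and 11.8%. Of all listed TE genes, 17.1% overlapped no TE of the study's lists. Of the *Copia* genes on in *met1*, 60.6% were members, but of the Gypsy and En-Spm genes on in *met1* 4.49% and 3.80% were. Seen from *ddcc*, 52.6% of the *Copia*, 48.0% of the Gypsy and 83.3% of the MuDR genes that were on were members.

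The reads on the members divided in the same manner. *Copia* genes held 66.0%, 52.3% and 61.5% of the members' reads in the 3 *ddcc* libraries and 21.2%, 21.2% and 21.6% in the 3 *met1* libraries. Gypsy genes held 11.2% ± 1.89 in *ddcc* and 41.3% ± 1.66 in *met1*, and En-Spm genes 3.00% ± 0.896 and 14.7% ± 0.353 (SD, n = 3 each). The libraries of the 2 mutants did not overlap in any of these 3 shares. In *met1* most of the Gypsy reads lay on AT4G06718, AT3G43862, AT5G33255, AT4G06615 and AT4G06607, with 339 to 1560 normalised reads each. These genes had 9.71 to 21.9 normalised reads in *ddcc*, so the Gypsy shares need not hold for the other Gypsy members. MuDR genes took 12.3% ± 0.542 in *met1* and at least 8.97% in each *ddcc* library, and here the libraries of both mutants overlapped. Without AT3G45520, the member with most reads in *ddcc*, the *Copia* share was 47.6% ± 1.99 in *ddcc* and 14.7% ± 0.316 in *met1*. The plot of shares by superfamily shows each library.

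**Figure D2:**
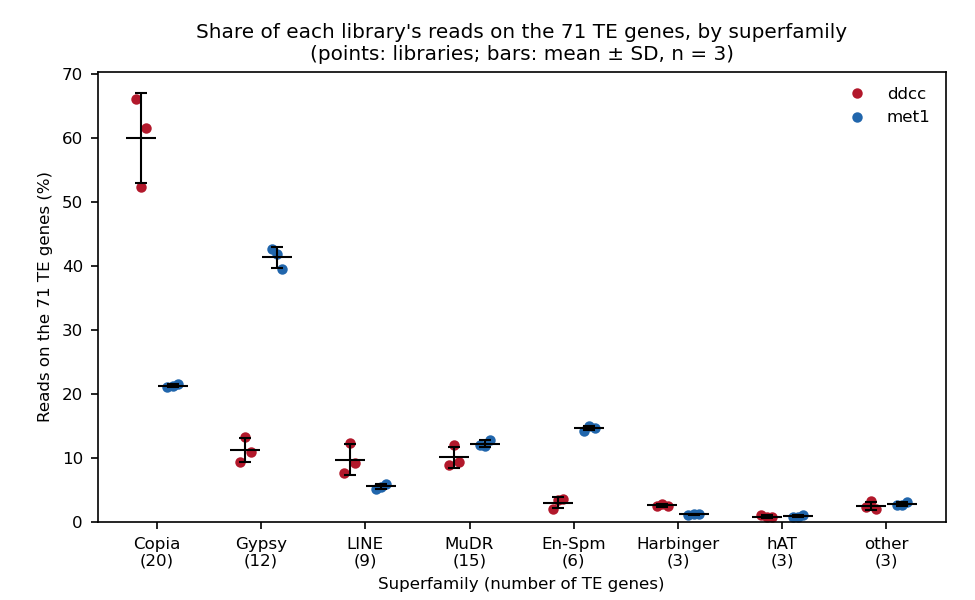
Percentage of each library's reads on the 71 TE genes that fell on each superfamily (x axis, with the number of genes), for the 3 *ddcc* (red) and 3 *met1* (blue) libraries, with mean ± SD as bars. *Copia* holds between 52.3% and 66.0% in *ddcc*, above all *met1* libraries, and Gypsy holds between 39.5% and 42.7% in *met1*, above all *ddcc* libraries.

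To compare genes, levels were divided by exon length and given as normalised reads per kb, within each table. The median member had 23.9 per kb in *ddcc* and 25.9 in *met1*, with a range of 1.80 to 442 and of 2.43 to 1395. Across the 71 genes the ranks in the 2 mutants were weakly related (Spearman's rho 0.350, a description over genes that share libraries). Of the 10 genes with the highest levels in each mutant, 2 were shared. The rank was higher in *ddcc* than in *met1* for 17 of 20 *Copia* genes and lower for 6 of 6 En-Spm genes. Gypsy genes were split, with 5 ranked higher in *ddcc* and 7 in *met1*. The 6 En-Spm genes lie in 5 elements, and AT1G49090 and AT3G46487 among them are near copies. Some *Copia* genes are near copies too, so these counts are not over independent genes.

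AT3G45520, a *Copia* gene on chr3:16692706-16696797 with LTRs of 734 bases, had the highest level in *ddcc*. Its reads numbered 1, 3 and 2 in Col-0, 2261, 873 and 1684 in *ddcc* and 837, 733 and 957 in *met1*. This was 442 ± 227 normalised reads per kb in *ddcc* and 222 ± 21.3 in *met1* (SD, n = 3), and *ddcc* replicate 2 was low against the other 2. The gene alone took 24.3% of the members' normalised reads in *ddcc*.

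Rank 2 in *ddcc* was held by the *Copia* gene AT3G30843, given here with its neighbouring *Copia* gene AT3G30844. The *Copia* gene AT1G35735 was 96.5% identical to AT3G30843 over 822 bases and 96.6% identical to AT3G30844 over 2827 bases. The 2 neighbours may thus not be independent. AT3G30843 (chr3:12607271-12608250) had 0, 0 and 2 reads in Col-0, 215, 238 and 161 in *ddcc* and 22, 19 and 22 in *met1*. AT3G30844 (chr3:12602729-12606196) had no read in Col-0, 281, 327 and 269 reads in *ddcc* and 22, 20 and 28 in *met1*. Against a floor of 3 reads over the 3 Col-0 libraries, its *ddcc* level was at least 353-fold higher. Both ranked high in *ddcc* (2 and 6) and low in *met1* (38 and 59).

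The MuDR gene AT3G47260 (chr3:17403129-17407827) was the other member in the top 8 of both mutants. Its reads numbered 0, 2 and 3 in Col-0, 299, 388 and 317 in *ddcc* and 591, 449 and 623 in *met1*, and its spread was small in both (147 ± 6.22 and 242 ± 22.4 normalised reads per kb). The other genes in the top 8 of *ddcc* were AT2G05030 (Gypsy), AT1G33450 and AT1G17277 (MuDR) and AT2G10980 (Harbinger), with 81.7 to 117 per kb in *ddcc* and 73.4 to 129 in *met1*. These genes, with exon lengths of 483 to 813 bases, ranked 4 to 8 in *ddcc* and 11 to 18 in *met1*.

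Of the 6 highest levels in *met1*, 5 were on Gypsy genes, of which 4 lay in pericentromeric windows (defined with the positions below). AT4G06718 (chr4:4017248-4018366) had 1, 1 and 0 reads in Col-0, 7, 15 and 7 in *ddcc* and 1498, 1191 and 1670 in *met1*. Its 1395 ± 97.7 normalised reads per kb in *met1* stood beside 9.18 ± 3.43 in *ddcc*, rank 1 against rank 50 of the 71. AT3G43862, whose primer binding site is shown above, had 0, 0 and 1 reads in Col-0, 21, 23 and 16 in *ddcc* and 1581, 1165 and 1090 in *met1*. AT4G06615, AT4G06607 and AT5G33255, all Gypsy, had 246 to 484 per kb in *met1* and 5.35 to 18.3 in *ddcc*. The En-Spm gene AT1G49090 (chr1:18161320-18162686) had 1, 2 and 1 reads in Col-0, 20, 26 and 22 in *ddcc* and 577, 487 and 583 in *met1*. Its near copy AT3G46487, 99.0% identical over 1187 bases, had 222 ± 14.5 per kb in *met1* and 6.14 ± 1.08 in *ddcc*.

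The libraries of a mutant mostly agreed on single genes. The range over the 3 libraries was under 2-fold for 56 members in *ddcc* and for 64 in *met1*. It was over 4-fold for 2 members in *ddcc* and for none in *met1*. The En-Spm gene AT2G05660 had 21, 74 and 9 reads in *ddcc*, with replicate 2 the highest, and the *Copia* gene AT3G44215 had 88, 197 and 393, with replicate 3 the highest. The LINE gene AT3G24675 had 13, 41 and 10. The widest ranges in *met1* were those of AT2G15520 (27, 14 and 74 reads) and AT5G13475 (49, 34 and 23), both classed as LINE, and AT2G15815 (20, 6 and 19). No replicate was high at all of these genes. The only member with a gene symbol in the reference was AT3G42658 (SADHU3-2, of the Sadhu retroelements), which had no Col-0 read, 38, 21 and 19 reads in *ddcc* and 80, 79 and 148 in *met1*.

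A smaller share of the members than of the TE genes on in *met1* alone lay in pericentromeres. Pericentromeric windows were those of 500 kb with at least as many listed TE genes as protein-coding genes. They held 14 of the 71 members (19.7%) and 6 of the 36 TE genes on in *ddcc* alone (16.7%), against 360 of the 592 on in *met1* alone (60.8%) and 849 of all 1764 listed (48.1%). Members also had a smaller share than genes on in *met1* alone within *Copia* (3 of 20 against 3 of 7) and Gypsy (6 of 12 against 199 of 238). The same held for MuDR (0 of 15 against 46 of 153). Harbinger (2 of 3 against 3 of 6) and otherwise classed genes (1 of 3 against 2 of 8) went the other way. Of all listed genes, 22 of 147 *Copia*, 412 of 542 Gypsy and 98 of 322 MuDR genes lay in such windows. For *Copia* this is much the same share as in the members. The 14 pericentromeric members took 15.7% ± 2.49 of the members' reads in *ddcc* and 29.1% ± 1.11 in *met1* (SD, n = 3). These are counts over genes that share elements, and no test was made.

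**Figure D3:**
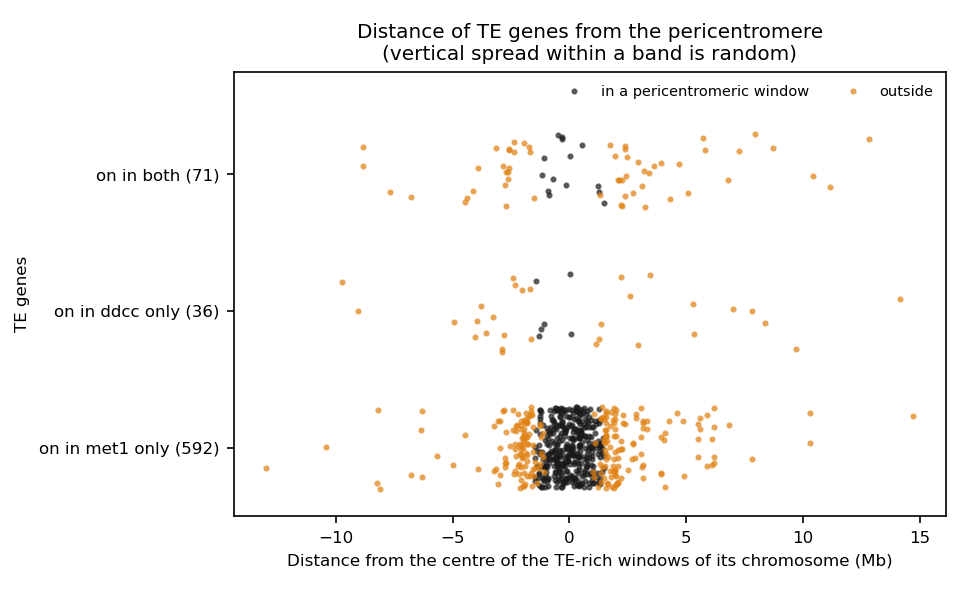
Distance in Mb of each TE gene (points) from the centre of the TE-rich windows of its chromosome, for genes on in both mutants, in *ddcc* alone and in *met1* alone. Of the 71 genes on in both, 14 lie in pericentromeric windows (black), and of the 592 on in *met1* alone 360 do.

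The members were scattered over the 5 chromosomes (15, 20, 16, 10 and 10 on chromosomes 1 to 5). In 7 places members lay less than 10 kb apart. The largest run held AT2G15800, AT2G15810 and AT2G15815 on chr2:6880825-6887542, all classed as MuDR, with 16, 28 and 16 reads, 28, 39 and 42 reads and 12, 39 and 21 reads in *ddcc*. In *met1* they had 18, 19 and 24 reads, 29, 37 and 49 reads and 20, 6 and 19 reads. AT2G15800 overlaps the gene SQN on the other strand over 74 bp, of 1917 bp in the TE gene and 3125 bp in SQN. The strand setting of the counting is not given, so reads within these 74 bp cannot be assigned to either gene. The *Copia* gene AT4G11375 lies with all of its 4432 bp inside the annotated span of the gene AT4G11373, so its reads are uncertain too.

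Over all superfamilies the members were longer and held fewer CG sites per length than the genes on in *met1* alone, but neither held in every superfamily. Their median annotated span was 3640 bp, against 4412 bp for the genes on in *ddcc* alone and 2363 bp for those on in *met1* alone. By superfamily, members against genes on in *met1* alone had medians of 4409 against 4227 bp for *Copia*, 4689 against 4684 bp for LINE and 3261 against 2391 bp for MuDR. Members had the shorter median for Gypsy (1874 against 2029.5 bp), for En-Spm (1432.5 against 2475 bp) and in pericentromeric windows (1287.5 against 2271 bp). The members had a median of 2.11 CG sites per 100 bp, against 1.79 and 2.84 in these groups and 2.68 in all listed TE genes. The median density of CHG sites was 3.32 per 100 bp in members, 4.10 in genes on in *ddcc* alone, 3.26 in genes on in *met1* alone and 3.28 in all listed TE genes. The median GC content was 40.9%, 42.2%, 42.1% and 41.7% in the same order. Within superfamilies, the median CG density of members against genes on in *met1* alone was 1.59 against 2.67 for *Copia*, 1.85 against 2.55 for MuDR, 1.97 against 2.56 for LINE and 1.34 against 2.61 for En-Spm. For Gypsy genes it was 3.26 against 3.34. Outside the pericentromeric windows the medians were 1.77 for members and 2.60 for genes on in *met1* alone, and inside them they were 3.13 and 2.97. The plot of CG density shows the single genes.

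**Figure D4:**
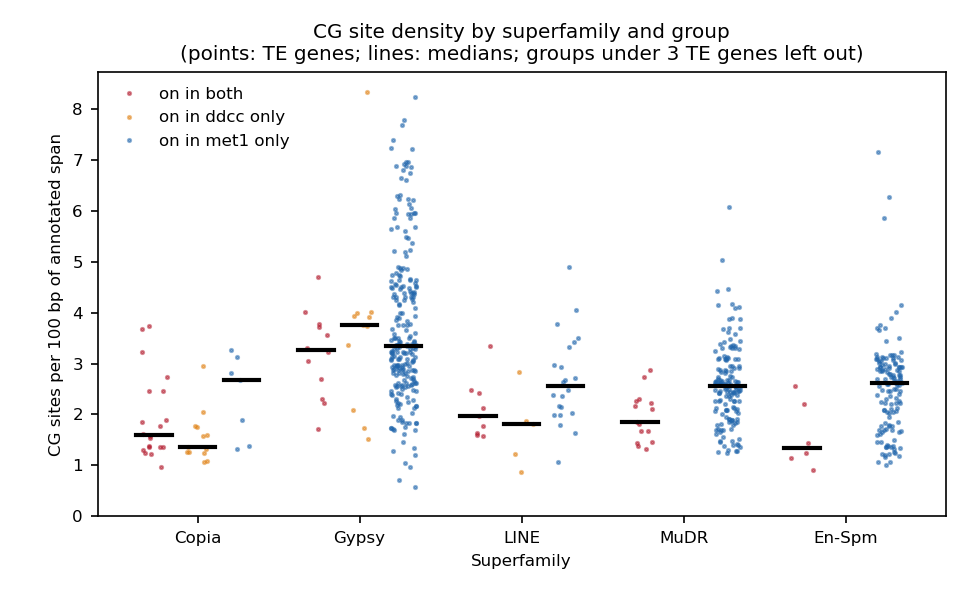
CG sites per 100 bp of annotated span for TE genes (points) of 5 superfamilies that were on in both mutants, in *ddcc* alone or in *met1* alone, with medians as lines. Members lie lower than genes on in *met1* alone for *Copia*, LINE, MuDR and En-Spm (medians 1.34 to 1.97 against 2.55 to 2.67) and at a similar height for Gypsy.

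Many members have near copies, which bears on their counts because reads with a mapping quality under 30 were removed. The share of a gene's 31-base words that occur once in the genome was 77.0% in the median member. The median was 77.8% for genes on in *ddcc* alone, 59.9% for those on in *met1* alone and 71.3% for all listed TE genes. Among members the share was at least 50% in 49, and the lowest value was 10.6%, for AT1G49090. Among the 8 members highest in *met1*, AT4G06718, AT3G43862, AT4G06615, AT1G49090, AT4G06607 and AT3G47260 had 10.6% to 34.5%. The others of these 8 had 77.0% (AT5G33255) and 93.3% (AT3G45520). The *Copia* genes AT1G48680, AT4G09595 and AT5G57126 were 92.1% to 97.0% identical, and the MuDR genes AT1G32830, AT2G02200 and AT2G04970 were 84.2% to 90.9% identical. The *Copia* genes AT1G35735 and AT3G30844 were 96.6% identical over 2827 bases, and the Gypsy genes AT4G06615 and AT4G06718 93.2% over 989 bases. Levels of such genes are uncertain, since only reads that differ between the copies were counted on one of them. Across members, the share of unique words and the level per kb were weakly related (Spearman's rho 0.0294 in *ddcc* and -0.204 in *met1*, descriptions over 71 genes).

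In windows from 250 bases before to 50 bases after the annotated start, the TATA box letters TATAAA were found on either strand for 14 of the 71 members (19.7%), 28.3% of all listed TE genes and 52.1% of all protein-coding genes. The heat shock element GAANNTTC was found for 11.3% of members and 10.7% of TE genes, the W-box (TTGACC or TTGACT) for 23.9% and 27.1%, and the G-box CACGTG for 1.41% and 1.93%. In the 500 bases before the start the W-box was found for 22 of the 71 members and 43.3% of TE genes and the G-box for 11.3% and 5.67%, whose order thus turned, and the heat shock element for 19.7% and 15.8%. Annotated starts of TE genes often lie inside the element, so these windows need not hold the promoter in use.

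To ask whether genes next to the members also changed, *ddcc* and Col-0 were compared with limma across the 17005 genes that reached about 10 reads in at least 3 libraries. A gene was called where its log2 fold change exceeded 1 in size and its Benjamini-Hochberg adjusted p was below 0.01. Of all tested genes, 663 were higher in *ddcc* (3.90%) and 198 lower (1.16%). With total counts as the only scaling, 440 were higher and 787 lower, and the median log2 fold change moved from -0.03 to -0.35. Of the members, 59 passed the filter, through *ddcc* alone, and the calls on them only repeat the choice.

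Among the 72 non-TE genes within 2 kb of a member, 32 were tested, 3 were higher (9.38%) and 1 was lower, where 3.19% of all 16602 tested non-TE genes were higher. The median log2 fold change of the 32 was -0.04, against -0.03 over all tested non-TE genes, and the 28 that passed no threshold lay between -1.03 and 1.02. Near the genes on in *ddcc* alone, 0 of 13 tested genes were higher, and near the 592 on in *met1* alone, 1 of 46 was (2.17%). The count of higher neighbours of members rests on 3 genes and moved to 1 of 20 within 1 kb and to 7 of 64 within 5 kb. Within 5 kb, 1 of 34 (2.94%) was higher near genes on in *ddcc* alone and 5 of 114 (4.39%) near those on in *met1* alone.

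PUM9 (AT1G35730, an RNA-binding protein of the Pumilio family) lies 1160 bp downstream of the *Copia* gene AT1G35735 on the same strand. PUM9 reads numbered 0, 0 and 3 in Col-0, 32, 45 and 40 in *ddcc* and 1, 2 and 1 in *met1*. The log2 fold change between *ddcc* and Col-0 was 4.84 (SE 0.54, limma adjusted p = 0.000243, from 4.52e-05 to 0.00395 over the alternatives). AT1G35735 itself had 0, 1 and 0 reads in Col-0, 143, 160 and 103 in *ddcc* and 12, 7 and 15 in *met1*, and it ranked 25 of the 71 in *ddcc* and 70 in *met1*.

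Within 2 kb, PUM9 was the only higher gene among 6 tested that lay downstream on the same strand. Within 5 kb there were 3 of 15 on that side, 0 of 13 downstream on the opposite strand, 2 of 21 upstream on the opposite strand and 1 of 14 upstream on the same strand, and the overlapping gene SQN made 7 in all. The genes further than 2 kb were named after their values were seen. Upstream were LHCA3 (2341 bp from AT1G61510, log2 fold change 1.36, 7820 normalised reads in *met1*) and COR413-PM1 (3092 bp from AT2G16000, log2 fold change 1.52, 75.3 in *met1*). ABCG38 (AT3G30842, an ABC transporter) lies 2297 bp downstream of AT3G30844, the near copy of AT1G35735, on the same strand. It had no Col-0 read and 63, 83 and 69 reads in *ddcc*. Its level in *ddcc* was at least 86.3-fold higher than a floor of 3 reads over the Col-0 libraries (limma adjusted p = 4.25e-06, from 8.73e-07 to 0.000307 over the alternatives). In *met1* it had 0, 1 and 2 reads. The gene AT2G41590 lies 4367 bp downstream of the LINE gene AT2G41570 on the same strand. Its reads numbered 1, 1 and 0 in Col-0, 22, 26 and 30 in *ddcc* and 4, 0 and 2 in *met1* (log2 fold change 4.22, SE 0.46, limma adjusted p = 0.000231).

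**Figure D5:**
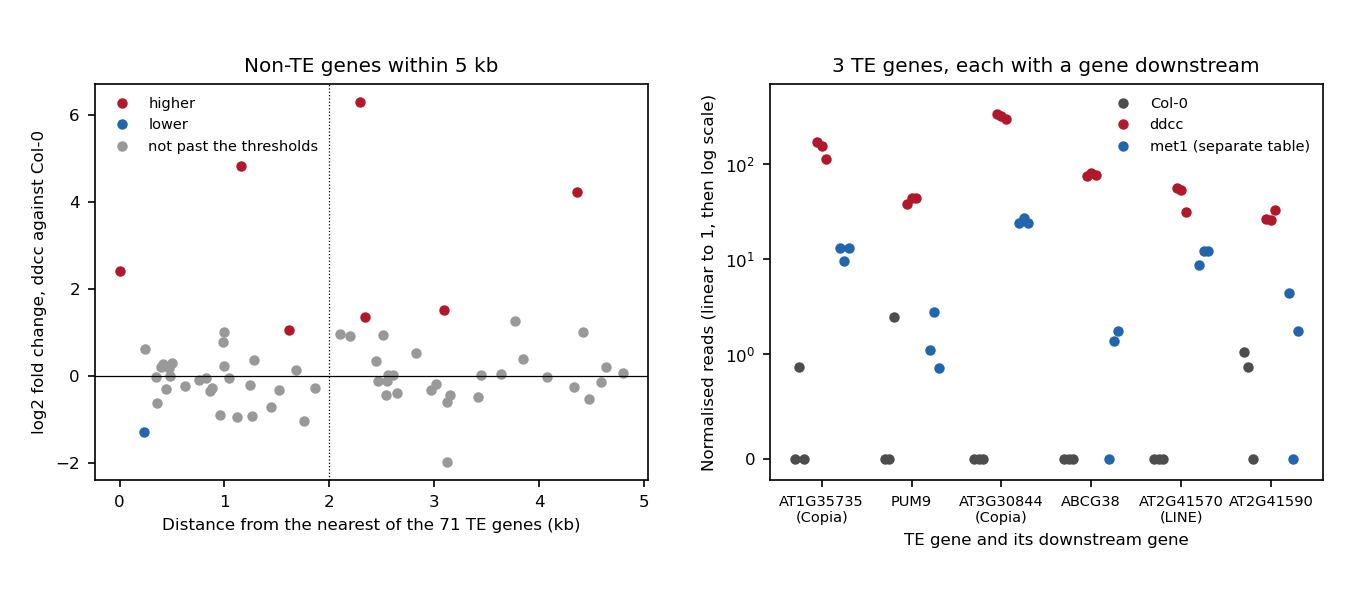
Left, log2 fold change of *ddcc* against Col-0 of the tested non-TE genes by their distance in kb from the nearest of the 71 TE genes, with the 2 kb limit dotted. Right, normalised reads per library of 3 TE genes and a gene downstream of each, picked after their values were seen, where the 3 downstream genes have 25.5 to 81.3 in *ddcc* and at most 4.35 in *met1*, which is normalised in a separate table.

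SQN (AT2G15790, a cyclophilin 40 homolog) overlaps AT2G15800. SQN reads numbered 52, 60 and 81 in Col-0, 233, 341 and 284 in *ddcc* and 709, 530 and 408 in *met1*, and its log2 fold change between *ddcc* and Col-0 was 2.41 (SE 0.14, limma adjusted p = 4.69e-06, from 1.45e-06 to 0.000229 over the alternatives). AT1G33590, 1614 bp upstream of AT1G33580, rose from 252 ± 28.6 to 528 ± 20.2 normalised reads (SD, n = 3 each, log2 fold change 1.07, SE 0.11, limma adjusted p = 0.000143), and with total counts it had a log2 fold change of 0.74, under the threshold. CRK40 (AT4G04570, a cysteine-rich receptor-like kinase) lies 230 bp upstream of AT4G04560, which was classed as *Copia*. CRK40 fell from 1163 ± 62.6 to 477 ± 63.0 normalised reads (log2 fold change -1.29, SE 0.11, limma adjusted p = 4.61e-05).

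Of 38 genes of DNA methylation and silencing, 35 were matched and 30 tested, with 0 higher and 1 lower by limma. By limma-voom the count was also 1 lower, and at an unadjusted p under 0.05 limma gave 7 higher and 8 lower, where 19.5% and 16.6% of all 17005 tested genes were higher and lower at that level. The 1 of 30 called lower and 0 of 30 called higher stand beside 1.16% and 3.90% of all tested genes. The gene called was ROS1, a DNA glycosylase that removes methylated cytosine. ROS1 reads numbered 320, 468 and 529 in Col-0, 49, 13 and 37 in *ddcc* and 0, 1 and 14 in *met1*, and the *ddcc* and Col-0 libraries did not overlap. Its log2 fold change was -3.58 (SE 0.43, limma adjusted p = 0.000417, from 5.51e-05 to 0.00376 over the alternatives). The median log2 fold change of the 30 genes was -0.09, against -0.03 over all tested genes.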

How the data were processed

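RNA of 3 Col-0, 3 *ddcc* and 3 *met1* libraries was used. According to the methods and the submitters' processing notes, the authors trimmed reads (Fastp in the methods, Trimmomatic in the notes), aligned them with HISAT2 (genome TAIR10), kept those of mapping quality 30 or more, counted them per gene with HTSeq and used DESeq2. Versions, annotation and strand setting are not given in the sources used here. The values deposited by the authors are on the log2 scale, after scaling by size factors and adding a pseudocount of 1. Undoing the log gave whole reads (largest deviation 8.20e-08 reads). At low read counts this scale compresses fold changes.

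The design foresaw a count test where files held counts. Since they hold log2 values, limma (3.58.1, R 4.3.3, lmFit and eBayes with an intensity trend) was run on the 6 libraries of Col-0 and *ddcc*, without covariates, on genes with about 10 reads in at least 3 libraries and 15 in total. On simulated data for 17005 genes it found 197 of 200 genes changed by a log2 fold change of 2 and called 0 others. The changed genes were drawn from well-expressed genes only, and all genes were given the same dispersion. The simulation therefore does not cover genes with few reads, such as PUM9, ABCG38 and AT2G41590, or genes that vary more between libraries. Sequences, gene positions and motifs came from the RefSeq assembly TAIR10.1, to which all 71 members matched. Superfamily and element ends came from the study's TE lists. Python 3.11.15, numpy 2.4.6, pandas 2.3.3, Biopython 1.88 and matplotlib 3.10.9 were used.

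The members, lists and tests were chosen with earlier results of these data known. Genes named are the 8 members highest per kb in each mutant, those nearest each limit, those with the widest ranges, the largest run, called neighbours and silencing genes, those with printed sequences and those with a symbol. Alternatives were other limits, units, scalings, filters, a pseudocount of 0.1, limma-voom, a replicate block, leaving out single libraries, and other windows. Floors of 3 reads cover counting error only.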

Additional observations from a re-analysis of the deposited data

How the results depend on the processing

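With stricter limits fewer TE genes were on in both mutants. There were 36 with log2 values under 1 and over 4, 47 with under 2 and over 4, and 41 with at most 3 reads over Col-0 and at least 10 reads in each mutant library, all of them among the 71. Looser limits (under 3 and over 3) gave 85 and scaling to nuclear reads gave 98, and leaving out each library gave 73 to 77. Leaving out a mutant library can only add genes, since the rule takes the lowest value. Higher genes in *ddcc* numbered 440 with total counts and 460 to 757 with each library left out. Lower genes numbered 787 with total counts, 298 with the replicate block and 85 to 208 with each library left out, with 85 without Col-0 replicate 2 and 127, 94 and 123 without *ddcc* replicates 1, 2 and 3. The replicate block gave 719 higher genes. Deviations of same-numbered libraries correlated at 0.213, 0.000849 and 0.0351, so the numbers were not taken as pairs.

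Neighbours called higher numbered 1 within 1 kb, 7 within 5 kb, 5 with no filter, 3 with the replicate block and 3 to 4 with each library left out. The median length was 3345 bp as exon length and 3841.5 bp with 1 member per element, and the median CG density was 2.05 with 1 member per element and 1.77 outside pericentromeric windows. TATAAA was found for 33 members (46.5%) in the 500 bases before the start, and for 44.3% of all listed TE genes. Pericentromeric members numbered 11 to 17. Silencing genes called numbered 3 with total counts (ROS1, DRM2 and NRPD2A, all lower) and 2 with the replicate block (ROS1 and DRM2). The alternatives with 1 member per element, with windows drawn from annotated pseudogenes and without AT3G45520 were chosen after seeing the data. The cause of these changes was not tested. Counts of at most 4 reads in a Col-0 library limit how low a member's wild-type level can be set.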

Other observations

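The 3 files labelled 5-week-old *met1* listed all 71 members and gave 0 reads in all 3 columns for 25 of them, and 0 reads in all 3 for 990 of 1759 TE genes listed there. Each of these files was identical to the Col-0 file of the same number at the 22607 shared genes. Members on in a 5-week-old *met1* plant were therefore not analysed here.

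Some TE genes outside the set resemble members in sequence. AT3G30450, on in *ddcc* alone, shared 57.8% of the 31-base words of AT2G02200, and AT2G06430, on in *met1* alone, shared 64.5% of those of AT3G47260.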
